A study of Mus musculus with 6 samples.

Results

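Oxidative phosphorylation genes were followed in rhombomere 4, the hindbrain segment in which Hoxb1 is active, of E10.5 mouse embryos. The members are all probe sets whose single gene symbol in the array annotation starts with Ndufa, Ndufb, Ndufc, Ndufs or Ndufv (complex I), Sdh (complex II), Uqcr (complex III), Cox4 to Cox8 (complex IV) or Atp5 (complex V). This gave 160 of the 22626 probe sets tested, for 87 of 12393 genes: 39 of complex I, 7 of complex II, 8 of complex III, 16 of complex IV and 17 of complex V. Symbols decided the membership, so 8 assembly factors, the Ndufaf and Sdhaf genes, are among the 87. Cox7a2l, a factor in the joining of complexes III and IV, is also among them and is counted with complex IV. A further 8 probe sets that list a matching symbol together with other symbols were left out.

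Oxidative phosphorylation makes most of the ATP of a resting cell. Complexes I and II pass electrons from NADH and succinate to ubiquinone, complex III hands them to cytochrome c, and complex IV reduces oxygen. Complexes I, III and IV pump protons across the inner mitochondrial membrane, and complex V, the ATP synthase, uses the gradient. Most subunits are encoded in the nucleus and a few in mitochondrial DNA. Several subunits of complex IV also have isoforms typical of muscle, testis or low oxygen.

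RNA came from pools of rhombomere 4 segments of several embryos, which per the labels also held surrounding branchial arch tissue. There were 3 wild-type pools and 3 Hoxb1 mutant pools, stated to be independent biological replicates, each hybridised to 1 Affymetrix mouse 430A array. The sources used here do not give the kind of mutant allele, whether it was homozygous, or the strain. The comparison asks which transcripts of the segment differ without normal Hoxb1. Intensities are the deposited values on a linear scale with no unit, and differences are mutant minus wild type of log2(intensity + 16). The intensity of 1 probe set does not measure transcript abundance relative to another. Since each array holds bulk tissue, fewer cells of a type and less RNA per cell cannot be told apart.

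Hoxb1 itself read 341, 378 and 588 on the wild-type arrays and between 35.3 and 60.8 on the mutant arrays, in the direction of the labels. Which part of the gene the mutation alters relative to this probe set is not known here. Arrays correlated at 0.973 to 0.984 over all probe sets, and 0 pairs were identical. The 18S ribosomal RNA probe sets set wild-type replicates 2 and 3 apart, where the log2 signal was 12.1 and 11.3, while the rest of the arrays had 6.36 to 7.03. All 6 measured genes of the hindbrain marker list, Hoxb1 among them, had lower means in mutants. Without Hoxb1, the summed intensities of the other 5 were 6412 to 7180 on wild-type and 5774 to 6009 on mutant arrays. All 5 markers of mesenchyme and arches were also lower, with sums of 4839 to 6246 and 4291 to 4938. Sums of 6 primitive erythroid markers, 4 of them higher in mutants, ran from 33470 to 38772 and from 36941 to 40976. Those of 9 muscle markers, 5 of them higher, ran from 813 to 1564 and from 1112 to 1560, and Myh6 and Tnnt2 lay at background on all 6 arrays. The 3 endothelial markers, all lower in mutants, summed to 959 to 1015 and 851 to 962, and the 3 macrophage markers, also all lower, to 711 to 775 and 518 to 852. Otx2, the measured 1 of 3 forebrain and midbrain markers, lay between 60.8 and 103 on all arrays. The part of cell composition and of the 18S signal in the values below was not tested, apart from the fits with the 18S signal given beside them.

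No respiratory chain or ATP synthase gene passed the test, and most of their transcripts were slightly more intense on the mutant arrays. Of the 87 genes, each taken by its brightest probe set, 70 had a higher mean in mutants, with a median log2 difference of 0.08, a change of 5.74%. Over all genes the median was -0.02 and 45.5% were higher. With arrays centred on their medians in place of the deposited scaling, 78 of the 87 and 56.3% of all genes were higher. Of the 160 probe sets, 123 were higher in mutants, 76.9%, where the share over all probe sets was 45.8%. In limma 0 of the 160 had an adjusted p under 0.05 over all probe sets tested, as did 0% of all 22626. The members' adjusted p ran from 0.833 to 0.999. Hoxb1 itself, with a log2 difference of -2.78 (SE 0.24; limma, adjusted p = 0.069), did not pass either. At an unadjusted p under 0.05, 3 members were higher and 2 lower, which is 1.88% and 1.25% of them, against 1.88% and 3.88% of all probe sets. In this fit the share of members at that level was no higher than the background, but the share higher in mutants depended on the setting. It was 7.50% (12 members) against 2.38% of all probe sets with a variance trend and robust fitting, 5.63% (9) against 2.85% with weighted arrays, and 7.50% (12) against 2.21% without mutant replicate 1. Without mutant replicate 2 it was 0% against 1.78%. The share lower in mutants stayed under that of all probe sets in each of these fits.

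The arrays measured these transcripts with little spread. Their median wild-type intensity was 2475 against 264 over all genes, and spread was not compared at matched intensity. The median SD over 3 arrays was 0.12 (log2) in wild type and 0.11 in mutants, against 0.17 in both groups over all genes, and the median standard error of a difference was 0.13 against 0.16. For 76 of the 87 genes the 95% interval of the limma difference lay within a 1.5-fold change either way, and for 85 within a 2-fold change. The exceptions to the latter were Sdhaf1 and Cox7a1. Of the 87 genes, 85 were above background on all 6 arrays, where background is 61.5, the 95th percentile of 27 bacterial control probe sets without a mouse target.

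**Figure D1:**
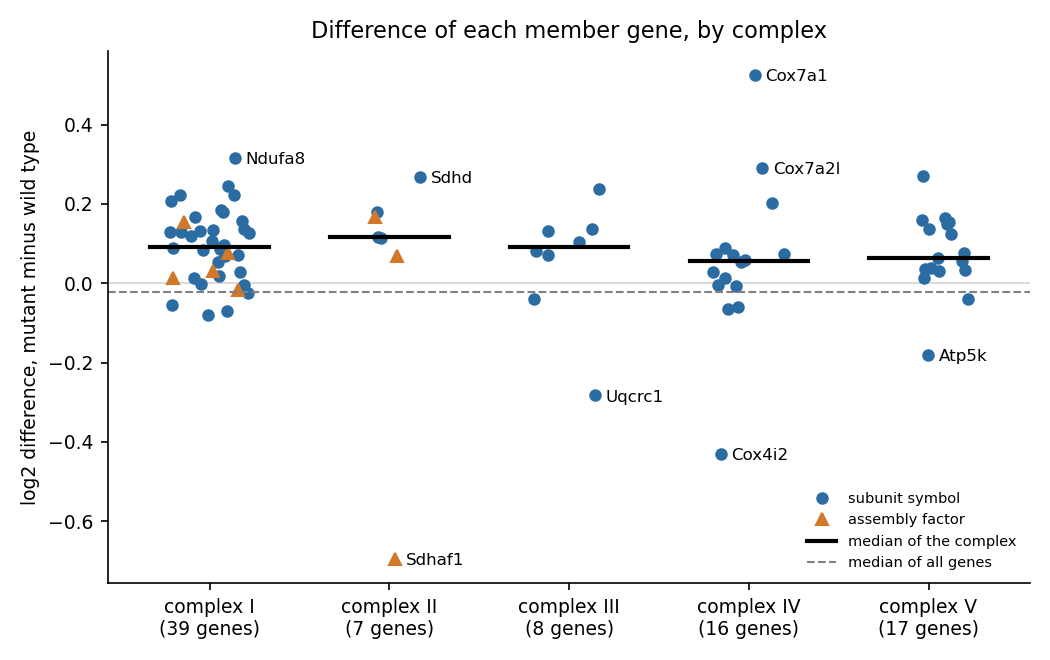
Log2 difference, mutant minus wild type, of each of the 87 member genes (brightest probe set), by complex on the x axis; circles are genes with a subunit symbol, triangles the 8 assembly factors, thick lines the median of each complex and the dashed line the median of all genes, -0.02. The medians of the 5 complexes lie between 0.06 and 0.12, and Sdhaf1, at -0.70, is the lowest point. Cox7a2l, a factor in the joining of complexes III and IV, is drawn as a circle.

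Spread over the 6 arrays, the members did not divide cleanly by genotype. An array score, the median over genes of the log2 deviation from each gene's mean over the 6 arrays, was -0.02, 0.01 and -0.11 in wild-type replicates 1 to 3 and -0.03, 0.07 and 0.10 in mutant replicates 1 to 3. Mutant replicate 1 thus lay among the wild-type arrays, and wild-type replicate 3 was the lowest of all. Wild-type replicate 3 held the lowest value of 42 of the 87 genes, and mutant replicates 2 and 3 the highest value of 27 and 30. The scores of all genes ran from -0.04 to 0.04 and had another order, with mutant replicate 1 highest. Without wild-type replicate 3 the members' median difference was 0.05 and 62 of 87 genes were higher, and without mutant replicate 1 the values were 0.13 and 70. With the 18S signal as a covariate the median was 0.07 and 67 genes were higher, and without both wild-type arrays of high 18S signal it was 0.07 and 66.

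**Figure D2:**
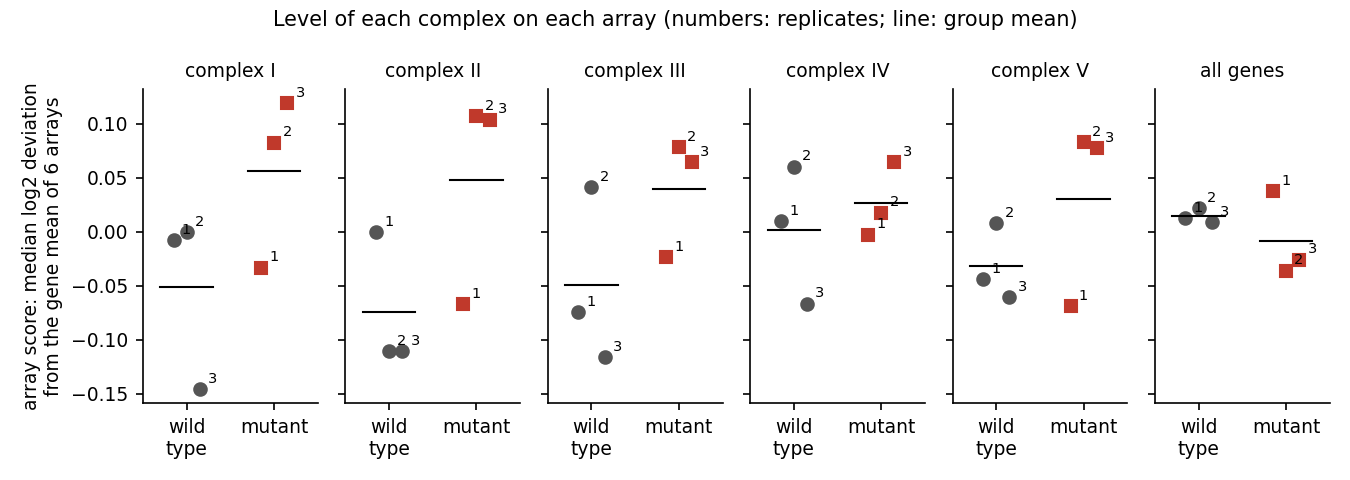
Array score (median log2 deviation from the gene mean of 6 arrays) on the y axis for each complex and for all genes, wild-type arrays as circles and mutant arrays as squares, numbered by replicate, with a line at each group mean. In every complex the groups overlap, and mutant replicate 1 lies below mutant replicates 2 and 3.

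The direction of the difference also went with signal intensity, in members and in other probe sets. Among probe sets with a mean log2 value of at least 10, an intensity of about 1008, 102 of 119 members (85.7%) and 60.7% of 3274 other probe sets were higher in mutants. Their median differences were 0.11 and 0.03. Among probe sets in the dimmest band (log2 under 7), 4 of 13 members and 42.8% of 8339 others were higher. Several probe sets belong to 1 gene and all share the same 6 arrays, so these shares describe the arrays and carry no test. What part the scaling of the arrays has in the offset of bright probe sets was not tested. Quantile normalization gave a members' median of 0.07 with 68 of 87 genes higher, and a median of 0.01 over all probe sets.

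**Figure D3:**
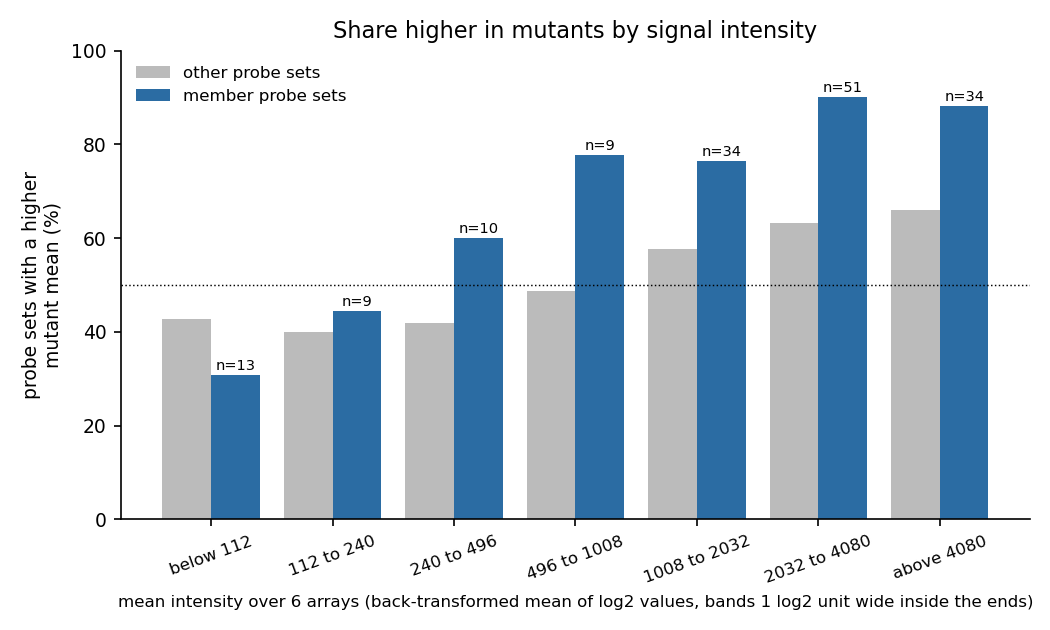
Percentage of probe sets with a higher mutant mean (y axis) in bands of mean intensity over the 6 arrays (x axis); grey bars are the other probe sets and blue bars the members, with the number of members above each bar and a dotted line at 50%. Both shares are larger in the bright bands, and from an intensity of 2032 to 4080 they are 90.2% for members and 63.1% for the others.

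All mutant values exceeded all wild-type values in 21 of the 160 member probe sets, 13.1%, against 4.88% of all probe sets. In 4 member probe sets all mutant values were under all wild-type values, 2.50%, against 7.08% of all. Among probe sets of at least that log2 value of 10, these shares were 16.8% of 119 members against 9.47% of the others for higher, and 1.68% against 5.53% for lower. By gene, over all intensities, 12 of the 87 were higher and 3 lower, against 620 and 908 of all 12393 genes. The 12 were Ndufa3, Ndufa5, Ndufa8, Ndufa10, Ndufa13, Ndufs4, Sdha, Sdhb, Sdhaf2, Uqcrh, Cox5b and Atp5pb, and the 3 were Sdhaf1, Uqcrc1 and Cox6a1. With 46 genes measured by several probe sets, 18 of these genes had differences of both signs. Of the members, 43 carry the suffix _x_at or _s_at, which marks probes that may detect related transcripts such as pseudogene copies.

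The 5 member probe sets of an unadjusted p under 0.05 belonged to Sdhaf1, Cox7a2l, Uqcrq, Atp5k and Ndufa8. Sdhaf1, an assembly factor that helps to place iron-sulphur clusters in succinate dehydrogenase, read 948, 855 and 1116 on wild-type arrays and 686, 693 and 434 on mutant arrays. Its groups did not overlap, and mutant replicate 3 was the lowest. The log2 difference was -0.70 (SE 0.21; limma, adjusted p = 0.833) and under the alternatives it ran from -0.81 to -0.48. Cox7a2l, a factor in the joining of complexes III and IV into supercomplexes, read 1749, 1781 and 1475 on wild-type arrays and 2055, 2269 and 2284 on mutant arrays with 1 of its 3 probe sets. Its log2 difference was 0.40 (SE 0.12; limma, adjusted p = 0.833). The other probe sets of Cox7a2l had the same sign, with differences of 0.20 (SE 0.11) and, for the brightest, 0.29 (SE 0.18), the last with overlapping groups.

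The remaining 3 were less uniform. Ndufa8, an accessory subunit of complex I, read 1905, 1599 and 2070 on wild-type arrays and 2332, 2317 and 2269 on mutant arrays, a log2 difference of 0.32 (SE 0.13; limma, adjusted p = 0.833). Without wild-type replicate 2, the lowest array, it was 0.21. Uqcrq, a small subunit of complex III, read 140, 141 and 132 on wild-type arrays and 121, 29.0 and 54.5 on mutant arrays with its dimmest probe set, so that mutant replicates 2 and 3 lay below background and replicate 1 near wild type. The log2 difference was -1.02 (SE 0.37; limma, adjusted p = 0.833), and -0.64 without mutant replicate 2. The other 3 probe sets of Uqcrq, among them the brightest at 1976 ± 212 and 1914 ± 92.0, had differences of -0.14 to -0.01 with overlapping groups. Atp5k, subunit e of the ATP synthase, read 4441, 3239 and 3124 on wild-type arrays and 4930, 4581 and 4540 on mutant arrays with 1 of its 3 probe sets, an _x_at set. This difference of 0.40 (SE 0.16; limma, adjusted p = 0.833) was 0.11 with the 18S covariate and 0.08 without both wild-type arrays of high 18S signal. The brightest probe set of Atp5k had a difference of the other sign, -0.18 (SE 0.16), with overlapping groups, and the dimmest had 0.14 (SE 0.11), with every mutant array higher.

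**Figure D4:**
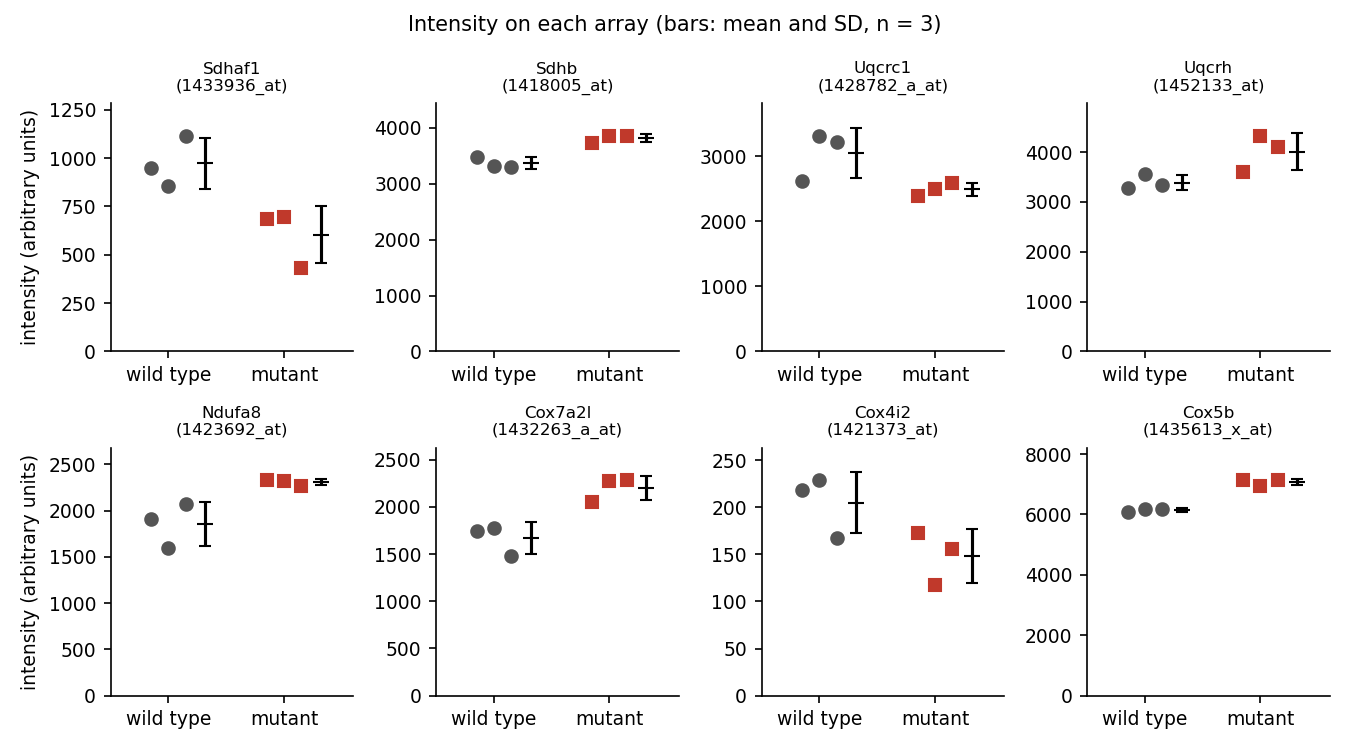
Intensity on each array (y axis, arbitrary units, from 0) for 8 member probe sets, wild-type arrays as circles and mutant arrays as squares, with mean and SD (n = 3) beside each group. Sdhaf1 and Uqcrc1 are lower on every mutant array, Cox4i2 overlaps between groups, and the other 5 are higher on every mutant array. The 8 were chosen by hand, while of all 160 member probe sets 21 were higher and 4 lower on every mutant array. Cox7a2l is shown with a probe set other than its brightest, and the brightest overlaps between groups. Cox5b is shown with its brightest probe set, and all its other probe sets overlap between groups.

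The promoters of these genes are shown for what their letters hold, since nuclear respiratory factor 1 (NRF1) and GABP, an ETS factor, are known regulators of respiratory genes. Promoter windows of 300 bases, 250 before to 50 after the start, were taken from RefSeq (GRCm38.p6) and matched 73 of the 87 genes in 78 windows. The stretches below are the 150 bases before the start, 5′ to 3′ on the gene's strand, with each match to a searched motif in capitals. Ndufa8, Atp5k, Sdhaf1 and Cox7a2l are the genes of unadjusted p under 0.05 that the table holds, and Sdha is shown for its 3 matches to NRF1. They lie at chr2:36049339-36049488 (Ndufa8), chr5:108434400-108434549 (Atp5k), chr13:74350241-74350390 (Sdha), chr7:30322376-30322525 (Sdhaf1) and chr17:83514334-83514483 (Cox7a2l), all on the minus strand.
Ndufa8: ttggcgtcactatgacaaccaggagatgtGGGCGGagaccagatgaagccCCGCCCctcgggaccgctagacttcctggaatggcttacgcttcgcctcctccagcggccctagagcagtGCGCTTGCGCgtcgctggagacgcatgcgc
Atp5k: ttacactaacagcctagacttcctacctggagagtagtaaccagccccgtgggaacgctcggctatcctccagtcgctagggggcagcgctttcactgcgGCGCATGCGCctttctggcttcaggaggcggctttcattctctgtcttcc
Sdha: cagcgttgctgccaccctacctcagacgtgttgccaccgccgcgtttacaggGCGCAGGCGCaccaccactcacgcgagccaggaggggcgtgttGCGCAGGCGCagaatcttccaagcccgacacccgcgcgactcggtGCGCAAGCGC
Sdhaf1: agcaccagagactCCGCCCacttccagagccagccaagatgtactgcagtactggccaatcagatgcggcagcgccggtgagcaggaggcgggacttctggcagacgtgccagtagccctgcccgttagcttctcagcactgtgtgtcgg
Cox7a2l: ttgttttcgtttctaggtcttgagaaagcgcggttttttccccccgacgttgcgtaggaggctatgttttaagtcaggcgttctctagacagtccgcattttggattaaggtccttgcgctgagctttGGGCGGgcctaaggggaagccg

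The motifs were searched on both strands. The capitals of Atp5k and Sdha, and the last capitals of Ndufa8, match the NRF1 motif (GCGCA, any base, then GCGC), and the capitals of Sdhaf1 and Cox7a2l, with the first 2 runs of Ndufa8, match the GC box GGGCGG. The capitals of different motifs do not overlap in these stretches. The NRF1 motif was in 18 of 78 member windows (23.1%) and in 4.60% of all 32851 windows. The ETS motif CCGGAAG was in 20 member windows (25.6%) and 8.86% of all, the YY1 motif AAGATGGCG in 6 (7.69%) and 1.40%, and the GC box in 35 (44.9%) and 35.7%. The motif TCAAGGTCA of oestrogen-related receptors was in 2 (2.56%) and 0.423%. By complex, the NRF1 motif was found in 6 of 36 genes of complex I, 3 of 6 of complex II, 1 of 5 of complex III, 1 of 11 of complex IV and 6 of 15 of complex V. The median log2 difference was 0.07 over the 17 genes with it and 0.09 over the 56 without. A match is only a run of letters, and the data hold no measure of binding.

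Complex I, the entry point for electrons from NADH, had 32 of 39 genes higher in mutants and a median difference of 0.09. None passed the test. At an unadjusted p under 0.05, 1 gene, Ndufa8, was higher and 0 were lower, against 211 and 465 of all 12393 genes. The array scores were -0.01, 0.00 and -0.15 for wild-type replicates 1 to 3 and -0.03, 0.08 and 0.12 for the mutant ones. Without wild-type replicate 3 the median was 0.05. A split by symbol, made after the values were seen, gave 13 of 13 higher for the Ndufa symbols other than assembly factors (median 0.13, from 0.05 for Ndufa4 to 0.32) and 10 of 12 for Ndufb and Ndufc (median 0.09). The Ndufs and Ndufv genes, which hold the NADH-binding and iron-sulphur subunits of the peripheral arm, were higher in 5 of 9 (median 0.03, from -0.08 to 0.17). The difference between these families was not tested.

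Among single complex I genes, Ndufa5, a subunit of the peripheral arm, read 1205, 1154 and 935 on wild-type arrays and 1284, 1306 and 1303 on mutant arrays. The groups did not overlap, with a log2 difference of 0.25 (SE 0.13). The dimmer probe set of Ndufa5 had 0.13 (SE 0.21) with overlapping groups. Ndufa4, named with complex I but since assigned to cytochrome c oxidase, had the highest mean intensity of the Nduf members and gave 6065 ± 659 and 6268 ± 243 (SD, n = 3), with a difference of 0.05 (SE 0.12). Ndufv1, the NADH-binding flavoprotein, gave 1956 ± 144 and 1847 ± 94.5, and Ndufb11, a membrane arm subunit, 3856 ± 337 and 3707 ± 161. Both had lower means in mutants with overlapping groups, at -0.08 (SE 0.11) and -0.05 (SE 0.12). Both dimmer probe sets of Ndufb11 had the other sign, at 0.18 (SE 0.12) and 0.16 (SE 0.11), the latter with every mutant array higher. A dimmer probe set of Ndufv1 had 0.03 (SE 0.11) and another -0.06 (SE 0.11).

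In complex II, succinate dehydrogenase, all 4 structural subunits had higher means in mutants while Sdhaf1 had a lower one. Sdhb, the iron-sulphur subunit, read 3488, 3319 and 3298 on wild-type arrays and 3730, 3861 and 3852 on mutant arrays. The groups did not overlap, and the log2 difference was 0.18 (SE 0.10; 95% interval -0.06 to 0.42; limma, adjusted p = 0.836). Sdha, the flavoprotein that oxidises succinate, read 2563, 2476 and 2385 on wild-type arrays and 2660, 2786 and 2604 on mutant arrays, also without overlap (0.12, SE 0.10). The dimmer probe set of Sdha had a difference of 0.02 (SE 0.11) with overlapping groups. The membrane anchors Sdhd and Sdhc overlapped between groups. Sdhd gave 2037 ± 179 and 2464 ± 323 (0.27, SE 0.14), and Sdhc 1548 ± 127 and 1681 ± 212 (0.11, SE 0.14), while its dimmer probe set had a lower mean in mutants. Of the other assembly factors, Sdhaf2, which attaches FAD to Sdha, gave 1069 ± 47.7 and 1202 ± 71.0, and Sdhaf4 1202 ± 114 and 1263 ± 130. Over the 7 genes the median was 0.12, and 0.07 both with the 18S covariate and without the wild-type arrays of high 18S signal; without mutant replicate 1 it was 0.18.

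In complex III, ubiquinol-cytochrome c reductase, 6 of 8 genes had higher means in mutants and Uqcrc1 and Uqcrq lower ones. Uqcrc1, a core protein of the matrix side, read 2619, 3317 and 3226 on wild-type arrays and 2393, 2497 and 2595 on mutant arrays. Every mutant array was lower, although wild-type replicate 1 came close to mutant replicate 3, and the log2 difference was -0.28 (SE 0.13; limma, adjusted p = 0.833). Uqcrh, the hinge protein near cytochrome c1, read 3278, 3554 and 3329 on wild-type arrays and 3598, 4326 and 4095 on mutant arrays, a difference of 0.24 (SE 0.12) without overlap. Uqcrfs1, the Rieske iron-sulphur protein, gave 2300 ± 177 and 2518 ± 117 (0.13, SE 0.11), with overlapping groups. Uqcrb, the complex III member of highest mean intensity, gave 9574 ± 881 and 10098 ± 184 (0.08, SE 0.12). The median of the complex was 0.09, and 0.05 without wild-type replicate 3.

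In complex IV, cytochrome c oxidase, 11 of 16 genes had higher means in mutants, with a median of 0.06. Without wild-type replicate 3 this median was 0.00067, and without replicate 2 it was 0.03. Cox5b, a subunit on the matrix side, read 6088, 6179 and 6183 on wild-type arrays and 7138, 6957 and 7142 on mutant arrays with its brightest probe set. The groups did not overlap, with a log2 difference of 0.20 (SE 0.10; limma, adjusted p = 0.833). All other probe sets of Cox5b overlapped between groups. The brighter of these had differences of 0.12 to 0.20, a dim one had -0.20 (SE 0.17), and another did not exceed background on any array. Cox6a1 gave 8108 ± 289 and 7742 ± 73.4 (-0.07, SE 0.10), with every mutant array slightly below the wild-type arrays, while its dimmer probe set had a difference of 0.13 (SE 0.14).

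The complex IV isoforms of general use were all far above background. Cox4i1 averaged 5396 ± 318 on wild-type arrays and 5370 ± 375 on mutant arrays, and Cox7a2, the complex IV member of highest mean intensity, 9754 ± 982 and 10215 ± 369. Cox8a gave 4551 ± 468 and 4781 ± 363, and Cox6b1 7253 ± 562 and 7540 ± 741. These 4 overlapped between groups, with differences of -0.01 to 0.07, whereas Cox6a1, given above, did not with its brightest probe set.

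Of the isoforms of restricted use, those of muscle and heart were at or near background. Cox7a1 and Cox8b did not exceed background on any of the 6 arrays, so no fold is given, and Cox6a2 read 77.2 to 111 in wild type and 78.2 to 107 in mutants. Of the testis isoforms, Cox6b2 averaged 213 ± 45.8 on wild-type and 213 ± 24.7 on mutant arrays (0.01, SE 0.17), and Cox8c 508 ± 29.3 and 506 ± 40.5 (-0.01, SE 0.12). Cox4i2, the isoform raised by low oxygen in other settings, read 218, 229 and 168 on wild-type arrays and 173, 117 and 155 on mutant arrays. Wild-type replicate 3 fell below mutant replicate 1, and the log2 difference was -0.43 (SE 0.18; limma, adjusted p = 0.833).

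In complex V, the ATP synthase, 15 of 17 genes had higher means in mutants, with a median of 0.06 and array scores of -0.04, 0.01 and -0.06 for wild-type replicates 1 to 3 and -0.07, 0.08 and 0.08 for the mutant ones. Without wild-type replicate 1 the median was 0.04, and without mutant replicate 1 it was 0.11. Subunit c, the ring through which protons pass, is encoded by Atp5g1, Atp5g2 and Atp5g3, which differ in their targeting peptides. Atp5g1 read 2184, 2137 and 2256 on wild-type arrays and 2207, 2789 and 3008 on mutant arrays, with mutant replicate 1 among the wild-type arrays (0.27, SE 0.14). Atp5g2 gave 4837 ± 310 and 5045 ± 77.0 (0.06, SE 0.11), and Atp5g3, the complex V member of highest mean intensity, 9958 ± 568 and 9678 ± 432 (-0.04, SE 0.11). Atp5pb, of the peripheral stalk, read 5215, 5108 and 5031 on wild-type arrays and 5243, 6072 and 5937 on mutant arrays, a difference of 0.16 (SE 0.11). Its dimmer probe set had 0.10 (SE 0.11) with overlapping groups. Atp5l, subunit g, gave 2570 ± 217 and 2636 ± 136 (0.04, SE 0.12).

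Lists of other respiratory genes had medians between -0.08 and 0.07, and whether they differ from the members was not tested. Among 11 electron carriers and shuttles, 6 were higher in mutants with a median of 0.05. Of these, cytochrome c (Cycs) gave 4748 and 5198 as group means (0.14, SE 0.17), Cyc1, the cytochrome c1 of complex III, 3780 and 3935 (0.06, SE 0.12), and Etfdh, which feeds electrons from fatty acid oxidation to ubiquinone, 425 and 363 (-0.22, SE 0.12). Cyct, the testis cytochrome c, did not exceed background on any array. Of 20 measured genes in a list of assembly and related factors, 11 were higher (median 0.03). This list held Lrpprc, Atpif1 and the members Sdhaf1 and Sdhaf2, but not the other assembly factors among the members. In it Sco2, a copper chaperone, gave 120 and 69.5 (-0.57, SE 0.32). Of 16 citric acid cycle genes 9 were higher (median 0.07), with Ogdh at -0.26 (SE 0.14) and Idh3b at 0.19 (SE 0.12). In these lists 0 genes passed limma's adjusted threshold, as did 0 of all 12393 genes. At an unadjusted p under 0.05, 0 were higher and 1, Sdhaf1, lower, against 211 higher and 465 lower of all 12393.

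Nuclear regulators of respiratory genes had a median of -0.08, with 7 of 16 higher in mutants and 0 past either threshold in either direction. Of all 12393 genes, 211 were higher and 465 lower at the unadjusted threshold. Tfam, which packages and transcribes mitochondrial DNA, gave group means of 1166 and 1266 (0.11, SE 0.12), Gabpa 617 and 658 (0.09, SE 0.10) and Gabpb1, its partner subunit, 658 and 561 (-0.22, SE 0.11), with every mutant array lower. Nrf1 read 426, 343 and 408 on wild-type and 379, 403 and 351 on mutant arrays (-0.05, SE 0.13). The coactivator Ppargc1a gave 107 and 90.1 (-0.23, SE 0.17), the orphan receptor Esrra 177 and 160.0 (-0.13, SE 0.14), and Polg2, the accessory subunit of the mitochondrial DNA polymerase, 290.4 and 358 (0.28, SE 0.13). Of the transcripts of mitochondrial DNA, ND5 was measured, at 7203 in wild type and 7107 in mutants (-0.01, SE 0.15).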

How the data were processed

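The deposited table holds linear intensity values, 1 for each probe set on each array, and the submitters' processing notes name affy. The sources used here do not name the expression algorithm and hold no detection calls. On each array the mean with 2% trimmed at each end was 500.0, and the deposited intensity scaling was kept. Values were transformed to log2(intensity + 16), 64 control probe sets were left out, and groups were compared over all 22626 others with limma 3.58.1 in R 4.3.3 (eBayes without trend, 2-sided, no covariate), with Benjamini-Hochberg adjustment and a threshold of 0.05. The step was tested on simulated data. The number of arrays limits the precision. Members, lists and settings were chosen with earlier results of these data known. Genes named were members of unadjusted p under 0.05, for complexes I, III, IV and V the gene of highest mean and the 2 of smallest p per direction, all complex II genes, isoform families, and for each list outside the rule the 2 of smallest p with Tfam, Nrf1, Gabpa, Ppargc1a, Esrra, Cycs and Cyc1. Other genes in the text (the non-overlapping genes) were picked after seeing their values. Same-numbered arrays of the groups carry matching codes in the sample titles, and whether these mark a pairing was not established. They were not paired in the main fit, as their deviations correlated at -0.02 to 0.05. Over so few arrays such correlations cannot exclude a pairing, and a fit with the replicate number as a block is given below. Alternatives changed the scaling (quantile, array medians), the pseudocount, the filter on dim probe sets, the variance model (a trend with robust fitting, or weighted arrays) or the design (a replicate block, an 18S covariate), or omitted arrays. Promoters and their coordinates came from RefSeq tables of GRCm38.p6, and gene names from the platform annotation.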

Additional observations from a re-analysis of the deposited data

How the results depend on the processing

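No member passed the adjusted threshold under any alternative, at 0.10 either, and the lowest adjusted p was 0.378. Over all probe sets, 3 passed with quantile normalization, 4 with array medians, 2 without the dimmest probe sets, 3 with trend and robust settings and 4 with array weights. Members of unadjusted p under 0.05 that were higher in mutants numbered 1 with quantile normalization, 12 with trend and robust settings, 9 with array weights, 1 and 6 with pseudocounts of 1 and 64, and 0 (without mutant replicate 2) to 12 (without mutant replicate 1) with 1 array left out; without mutant replicate 3 there was 1. The shares of all probe sets at that level were 2.89% with quantile normalization and 1.77% and 2.23% with the pseudocounts, against 0.625%, 0.625% and 3.75% of members. Without mutant replicate 3 the share was 1.81% of all probe sets against 0.625% of members. Those lower numbered 4 with a pseudocount of 64 (2.50% against 4.16% of all probe sets) and 0 with the 18S covariate (0% against 2.20%). With 1 array left out they numbered 1 (without wild-type replicate 2, mutant replicate 2 or mutant replicate 3) to 3 (without mutant replicate 1). The share of members was then 0.625%, against 2.88%, 2.90% and 2.99% of all probe sets, and 1.88% against 6.51% without mutant replicate 1. The complex IV median was 0.11 with array medians and 0.00067 to 0.074 with 1 array left out. With the replicate number as a block, 0 probe sets passed and no call changed. At an unadjusted p under 0.05, 3 members were higher and 2 lower in that fit. These were 1.88% and 1.25% of members, against 1.87% and 4.15% of all probe sets. By their deviations, 2 of 3 wild-type arrays correlated best with their own number. Of 39 named probe sets, 14 changed sign under some alternative, 0 of them among the 5 of unadjusted p under 0.05. The number of genes with a higher mean, examined under the alternatives after seeing the data, ran from 62 to 78 of 87.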
